A study of Mus musculus with 24 samples.

Results

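The 9 genes described here encode proteins that find a DNA break, signal it and repair it by homologous recombination: Atm, Atr, Brca1, Brca2, Mre11a, Nbn, Rad50, H2afx and Chek2. They were chosen by name, as every probe whose gene name on the array equals one of these symbols. This gave 9 of the 34797 named genes and 12 of the 55681 probes that are not controls: 6 genes had 1 probe each, and Atm, Atr and Rad50 had 2 each. RNA levels were measured in mammary glands of female mice of BALB/c, an inbred Mus musculus strain, and of SPRET/EiJ, which was inbred from another species, Mus spretus. Mice received a single whole-body X-ray dose of 10 cGy (low-dose ionizing radiation, LDIR) or a sham exposure at 8 to 9 weeks of age. Glands were collected 2, 4 and 8 weeks later from BALB/c and 4 weeks later from SPRET/EiJ. The 8 groups (LDIR and sham at each of these 4 combinations of strain and time) held 3 mice each, and each mouse was measured on its own 1-colour Agilent array.

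When both strands of DNA break, the complex of Mre11, Rad50 and Nbn binds the ends and recruits the kinase Atm, which phosphorylates the histone variant H2AX (H2afx) around the break and activates the kinase Chek2. Resected ends carry single-stranded DNA, which recruits the kinase Atr. Brca1 promotes resection and acts with Brca2 in the later steps of recombination, which copies the sister chromatid in dividing cells. Much of this response runs through phosphorylation of proteins already present, which RNA levels do not measure. BALB/c mice carry a known hypomorphic form of Prkdc, the catalytic subunit of the end-joining kinase DNA-PK. In a whole gland, fewer cells of a type and less RNA per cell cannot be told apart.

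The probe sequences are shown because the strain results below depend on which stretch of a transcript was read. Positions are those of the array files (mm9), and a gene's downstream probe is the one nearer the 3′ end of its transcript. Capitals mark TAA, TAG and TGA triplets, which are stop codons where they fall in the reading frame. For probes that may lie in untranslated sequence, the first 30 bases are given.
Atm, downstream, chr9:53245871-53245930, minus strand, first 30 bases: tTGAaaggTGAaaaagacTGAgtTAGaaaa
Atm, upstream, chr9:53256167-53256226, minus strand: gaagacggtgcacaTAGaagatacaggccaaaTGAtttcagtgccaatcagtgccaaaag
Rad50, downstream, chr11:53463096-53463155, minus strand, first 30 bases: ccactgtcttccttcaggaataTAAaacca
Rad50, upstream, chr11:53506211-53506270, minus strand: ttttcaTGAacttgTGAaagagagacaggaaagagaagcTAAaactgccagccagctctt
Atr, downstream, chr9:95851956-95852015, plus strand: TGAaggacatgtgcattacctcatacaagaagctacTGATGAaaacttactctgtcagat
Atr, upstream, chr9:95804322-95804381, plus strand, first 30 bases: tgcctgctggTAAgcaTGAagattggagtt
H2afx, chr9:44144033-44144092, plus strand, first 30 bases: ctgtctggacTGAgcctctggcttcTGAac
Brca1, chr11:101359283-101363319, minus strand: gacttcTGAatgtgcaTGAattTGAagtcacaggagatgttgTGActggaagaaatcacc
The downstream and upstream probes lay 10296 bases apart in Atm, 43115 in Rad50 and 47634 in Atr. The downstream Atm probe and the upstream Atr probe held a stop triplet in each of the 3 reading frames, so neither can be coding over its whole length. The other 10 member probes had at least 1 open frame. The 60 bases of the Brca1 probe span 4037 bases of the genome, so this probe crosses at least 1 exon junction. The array names the upstream Atr probe by a cDNA clone other than the RefSeq transcript of its downstream probe. Whether each probe is exonic, intronic or in an untranslated region was not analysed here, since no mm9 annotation was used.

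Levels are log2 intensities relative to the 75th percentile of the same array, so a level of 0 equals that percentile and a difference of 1 is a 2-fold change within a probe. Brightness differs between probes, so no level is compared between probes. The share of probes well above background ranged from 57.2%, on SPRET/EiJ LDIR replicate C, to 72.7%. Among the members, 11 of 12 were so on each of the 24 arrays. The Brca1 probe was so on 1 array, BALB/c sham replicate C at 8 weeks, and elsewhere has only a bound. All 6 epithelial markers (among them Krt8, Krt5 and Epcam) and all 6 adipocyte markers (among them Adipoq and Plin1) were well above background on all 24 arrays, as mammary tissue requires.

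A list of 6 lymphocyte markers (among them Ptprc, Cd3e, Cd3g, Cd79a and Ms4a1) set 3 arrays apart: BALB/c sham replicate A and LDIR replicate B at 8 weeks, and SPRET/EiJ LDIR replicate A. The mean log2 level of these 6 markers was 3.61, 4.01 and 3.36 on them and between -2.32 and -0.94 on the other 21. The B cell marker Ms4a1 lay between 4.08 and 4.49 on these 3 arrays and between -7.08 and -2.72 on the others. The adipocyte mean was 4.97 to 5.78 on these 3 and 6.40 to 7.51 on the others. Over all 24 arrays the marker means ranged from 1.92 to 3.31 for macrophages, 1.96 to 2.69 for endothelium, 4.20 to 7.61 for erythrocytes, -4.14 to 5.29 for skeletal muscle and -7.45 to 2.57 for milk proteins. Atm moved with the lymphocyte markers. On the upstream Atm probe the 3 arrays read -2.01, -1.91 and -1.05, each the highest of its group, and the other 21 arrays lay lower than -2.01. On the downstream probe LDIR replicate B at 8 weeks read 0.29 against -0.61 and -0.51 in its group, and SPRET/EiJ LDIR replicate A read -0.39 against -1.90 and -1.63, while BALB/c sham replicate A at 8 weeks read -0.38, in the middle of its group. Chek2 was the lowest of its group on all 3 arrays, at -2.85, -3.06 and -2.26. Nbn was the lowest of its group on 2 of the 3 arrays: SPRET/EiJ LDIR replicate A read -0.54 where the others of its group read 0.56 and 0.60, and BALB/c sham replicate A at 8 weeks read -0.78 where they read -0.49 and -0.34. The part of lymphocyte content in the group comparisons was not tested beyond leaving these arrays out, and values without them are given where they matter.

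**Figure D1:**
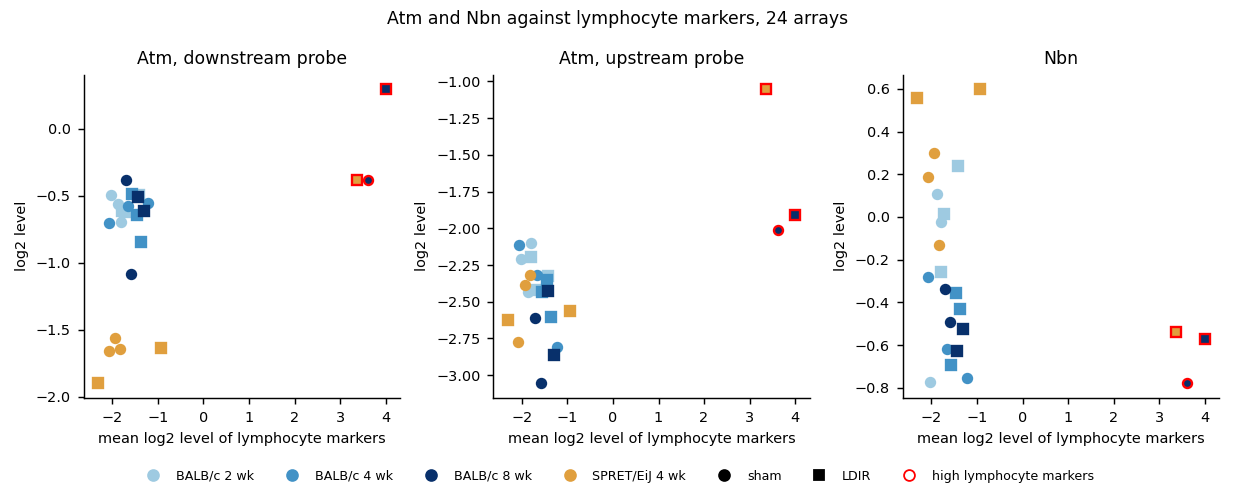
Log2 level of both Atm probes and of Nbn (y) against the mean log2 level of 6 lymphocyte markers (x), 1 point per array for 24 arrays. The 3 arrays outlined in red, with marker means of 3.36 to 4.01, carry the 3 highest upstream Atm levels.

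**Figure D2:**
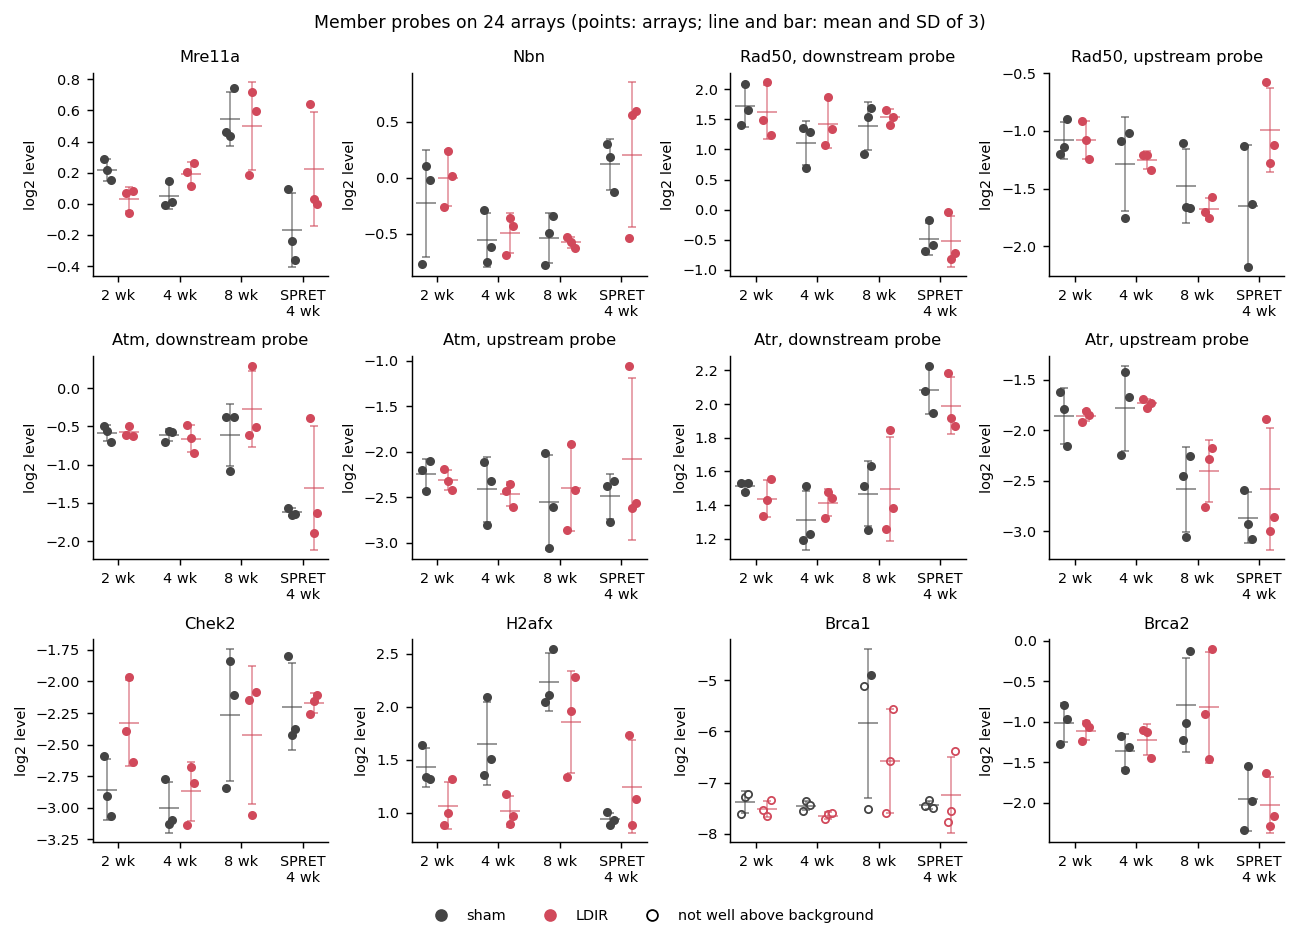
Log2 levels of the 12 member probes on 24 arrays, in sham (grey) and LDIR (red) groups, with the mean and SD of 3 arrays. Open circles mark arrays on which a probe was not well above background. H2afx is lower in each BALB/c LDIR group mean, and the downstream Rad50 and Atm probes are lower in SPRET/EiJ.

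The main question of the study was what LDIR changes weeks after exposure. After LDIR the RNA levels of the sensors, kinases and recombination genes lay within 1.5-fold of sham in most comparisons, and H2afx was the member that passed the thresholds of the study's methods in limma, though not in the methods' t-test. These thresholds, an unadjusted p under 0.05 and a change over 1.5-fold, are called the methods' thresholds below, and limma's moderated test was used on the 6 arrays of each comparison. After Benjamini-Hochberg adjustment over all probes, no probe of any kind had an adjusted p under 0.05 in any of the 4 single-time LDIR comparisons, where 2799, 3440, 1098 and 1238 probes had an unadjusted p under 0.05.

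In BALB/c at 4 weeks 1 of the 12 member probes passed the methods' thresholds, where 4.83% of all probes did. This was H2afx, which fell, as did 1.44% of all probes. The sham arrays read 1.35, 2.10 and 1.51, and the LDIR arrays 1.17, 0.89 and 0.97. All LDIR arrays lay lower than all sham arrays, a lack of overlap shown by 12.6% of all probes, although sham replicate B stood well over the other 2 sham arrays. The difference was -0.64 (SE 0.24, 95% interval -1.21 to -0.07), which passed the unadjusted threshold, with an adjusted p = 0.775 in limma. It no longer passed with slide as a block, at -0.50, and on slide 2, which held all LDIR arrays, sham replicate C alone read 1.51. It was also lost without sham replicate B, at -0.42, LDIR replicate B, at -0.58, or LDIR replicate C, at -0.62. The 20 proliferation genes listed for this report had mean levels of -2.01 to -0.93 on the sham arrays and -1.85 to -0.84 on the LDIR arrays, and sham replicate B, the array with most H2afx, had the lowest of these means. Other markers separated the same groups: macrophage means were 2.22 to 2.64 in sham and 2.67 to 3.04 after LDIR, and milk protein means -6.26 to -6.14 and -5.50 to -3.03. Their part in the result was not tested.

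H2afx was also lower after LDIR at the other BALB/c times, without passing. At 2 weeks sham arrays read 1.64, 1.33 and 1.31 and LDIR arrays 0.89, 0.99 and 1.32, a difference of -0.36 (SE 0.18, limma adjusted p = 0.869). At 8 weeks sham arrays read 2.04, 2.11 and 2.55 and LDIR arrays 1.33, 1.96 and 2.28, a difference of -0.38 (SE 0.33, limma adjusted p = 1.0). The groups overlapped at both times. Over the 9 LDIR and 9 sham BALB/c arrays with time as a factor, the difference was -0.46 (SE 0.14, 95% interval -0.76 to -0.16, limma adjusted p = 0.985). This was under 1.5-fold, and these arrays are those of the single times, so it is no separate test. Without the 2 BALB/c arrays with high lymphocyte markers it was -0.51 (limma adjusted p = 0.609). None of the 12 member probes passed both thresholds over all times, where 1.16% of all probes did, and H2afx was the 1 member with an unadjusted p under 0.05, as had 3.34% of all probes.

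In SPRET/EiJ the H2afx difference had the other sign, 0.31 (SE 0.29, limma adjusted p = 0.972), with sham arrays at 1.00, 0.88 and 0.93 and LDIR arrays at 1.73, 0.88 and 1.12. The strain by LDIR difference, the BALB/c value minus the SPRET/EiJ value at 4 weeks, was -0.95 (SE 0.37, limma adjusted p = 0.955). H2afx was the 1 of 12 member probes that passed here, where 3.59% of all probes did and 1.55% did so with a value lower in BALB/c. Without SPRET/EiJ LDIR replicate A, the array with lymphocyte markers, it was -0.70, and with slide as a block -0.80, and the call was lost in both. The other arrays without which it was lost are named in the closing section. Whether the LDIR difference changed between 2, 4 and 8 weeks was tested in BALB/c, and 0 of 12 member probes had an unadjusted p under 0.05 in limma's F-test, where 3.74% of all probes did.

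**Figure D3:**
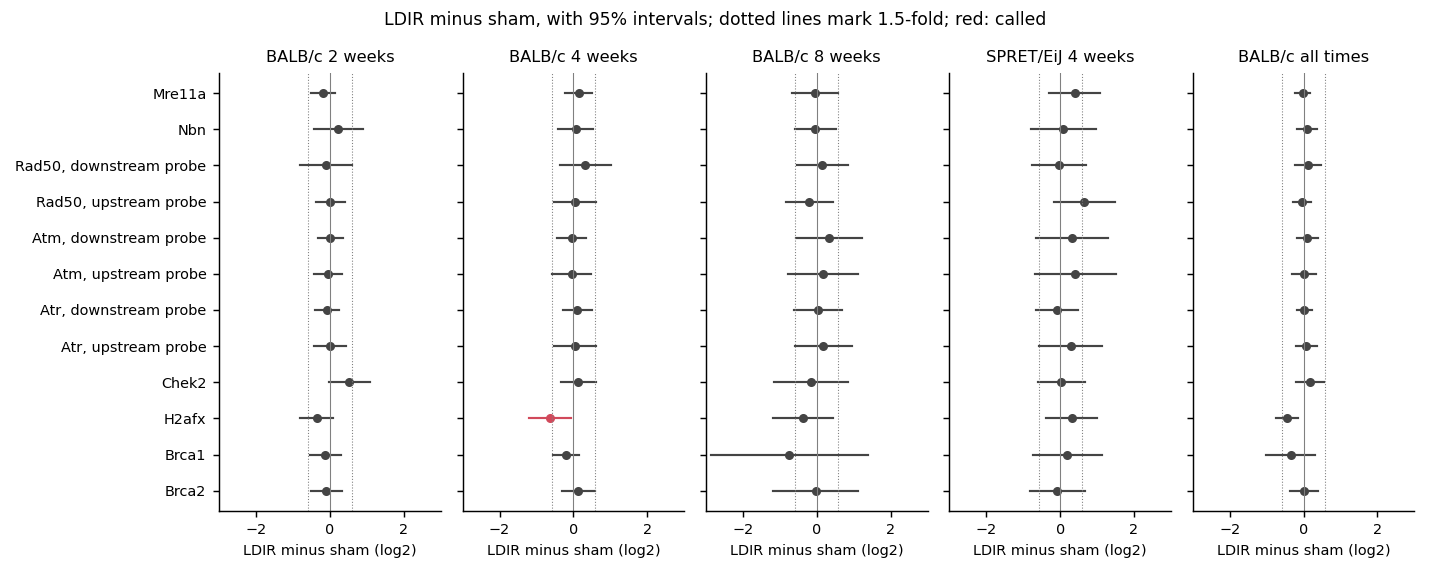
LDIR minus sham log2 differences (x) for the 12 member probes (y) in 5 comparisons, with 95% intervals of the limma fit. H2afx in BALB/c at 4 weeks, in red, is the point that passed both thresholds, at -0.64.

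The sensor complex, whose members hold and tether the ends of a break, did not pass in any LDIR comparison. At 2 weeks none of the 12 member probes passed, where 3.05% of all probes did. Mre11a, the nuclease of the complex, read 0.29, 0.22 and 0.15 on sham arrays and 0.07, -0.06 and 0.09 on LDIR arrays at 2 weeks. These groups did not overlap, as was so for 11.8% of all probes, and the difference of -0.18 (SE 0.13, limma adjusted p = 0.869) did not pass. At 4 weeks the Mre11a difference was 0.14 (SE 0.15) and at 8 weeks -0.05 (SE 0.25). Nbn, the adaptor that binds Atm, differed by 0.23 (SE 0.28), 0.06 (SE 0.19) and -0.04 (SE 0.23) at 2, 4 and 8 weeks. For Nbn the sham spread at 2 weeks, from -0.77 to 0.11, was wider than any of these differences. The downstream probe of Rad50, which bridges the ends through its coiled coils, differed by -0.10 (SE 0.29), 0.32 (SE 0.29) and 0.15 (SE 0.28). On the upstream Rad50 probe the SPRET/EiJ difference was 0.66 (SE 0.35, limma adjusted p = 0.972), from sham arrays at -1.13, -2.18 and -1.63 to LDIR arrays at -0.58, -1.28 and -1.12. The groups overlapped, the array at -0.58 was the one with lymphocyte markers, and without it the difference was 0.45 (SE 0.35). The downstream Rad50 probe differed by -0.04 (SE 0.31) on the same arrays.

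Among the kinases, Chek2, which passes the Atm signal to p53 and the cell cycle, came nearest to the thresholds. At 2 weeks its sham arrays read -2.59, -2.91 and -3.07 and its LDIR arrays -2.39, -1.96 and -2.64. LDIR replicate C lay among the sham arrays, and the difference was 0.53 (SE 0.23, 95% interval -0.03 to 1.08, limma adjusted p = 0.869). At 4 weeks it was 0.13 (SE 0.20) and at 8 weeks -0.16 (SE 0.41). Atm, the kinase at the head of the signal, differed by 0.01 (SE 0.14) at 2 weeks and -0.05 (SE 0.16) at 4 weeks on its downstream probe. At 8 weeks the downstream Atm difference was 0.34 (SE 0.36) and in SPRET/EiJ 0.31 (SE 0.42). Without the arrays with lymphocyte markers these were 0.17 (SE 0.30) and -0.15 (SE 0.20). Atr, which answers single-stranded DNA, differed by -0.07 (SE 0.14), 0.11 (SE 0.16) and 0.03 (SE 0.26) on its downstream probe. This downstream Atr probe had the narrowest spread of the 12 probes in BALB/c, from 1.19 to 1.84 over 18 arrays. The upstream Atr probe ran from -3.06 to -1.43 on the same arrays. None of the 12 member probes passed at 8 weeks, where 1.92% of all probes did, or in SPRET/EiJ, where 2.21% did.

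Neither recombination gene passed after LDIR. Brca2, a mediator of recombination, differed by -0.10 (95% interval -0.52 to 0.33) at 2 weeks and by 0.14 (95% interval -0.32 to 0.60) at 4 weeks. At 8 weeks the Brca2 difference was -0.03, but its interval ran from -1.18 to 1.12, since LDIR arrays lay between -1.46 and -0.10. Brca1 was not well above background on any LDIR array and gives no measured fold after LDIR. Over all BALB/c times, LDIR differences of the other 11 member probes lay between -0.46 and 0.16, with a median over all 12 of 0.02 beside -0.04 for all probes.

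Genes that work beside the members were described from fixed lists. Of 54 genes in 5 lists (chromatin factors of the Atm branch, the Atr checkpoint, resection, recombinase and mediators, joint resolution), 52 had a probe. In BALB/c the methods' thresholds were passed after LDIR by 0 of 52 at 2 weeks, 1 at 4 weeks and 0 at 8 weeks, where 2.39%, 4.53% and 1.57% of all genes passed. The gene at 4 weeks was Herc2, a ubiquitin ligase that assists Rnf8 at breaks, which read 2.63 ± 0.33 after LDIR and 3.62 ± 0.58 in sham (SD, n = 3), with an adjusted p = 0.775 in limma. In SPRET/EiJ 3 of 52 passed, where 1.77% of all genes did, and all 3 were higher after LDIR: Clspn, an adaptor of the Atr checkpoint, Dna2, a resection nuclease, and Gen1, a resolvase. None of these was well above background on any sham array, and they were so on 1, 1 and 2 of 3 LDIR arrays, so no fold is given. Each had an adjusted p = 0.972 in limma. The p53 targets Cdkn1a, Mdm2 and Ccng1, classic readouts of acute damage, did not pass in any LDIR comparison. Their differences over all BALB/c times were 0.00 (SE 0.18), -0.05 (SE 0.09) and -0.01 (SE 0.13). Of the end-joining genes, Prkdc differed by 0.16 (SE 0.11), Xrcc5 by -0.14 (SE 0.08), Xrcc6 by -0.09 (SE 0.10) and Lig4 by -0.16 (SE 0.12).

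The strain comparison asked how the gland of BALB/c, known as sensitive to radiation-induced mammary cancer, differed from the SPRET/EiJ gland at 4 weeks. Of the member probes, the downstream probes of Rad50 and Atm were higher in sham BALB/c and were the 2 of 12 that passed the methods' thresholds for strains (unadjusted p under 0.001 and over 1.5-fold), where 8.89% of all probes did and 5.36% did so with a higher level in BALB/c. Rad50 read 1.35, 0.69 and 1.29 on the BALB/c arrays and -0.70, -0.18 and -0.59 on the SPRET/EiJ arrays. The difference was 1.60 (SE 0.25, 3.03-fold, limma adjusted p = 0.00803). Atm read -0.70, -0.56 and -0.58 in BALB/c and -1.56, -1.66 and -1.64 in SPRET/EiJ, a difference of 1.01 (SE 0.15, 2.01-fold, limma adjusted p = 0.00638). Neither pair of groups overlapped. At the threshold of 0.001 the calls depended on single arrays: with any 1 of the 6 arrays left out Atm did not pass (0.98 to 1.05), nor did Rad50 without BALB/c replicates A or C or SPRET/EiJ replicates A or C (1.48 to 1.55). After LDIR the Rad50 difference was 1.96 (SE 0.33, 3.88-fold, limma adjusted p = 0.0137; 11.1% of all probes were under 0.05), with BALB/c arrays at 1.08, 1.87 and 1.34 and SPRET/EiJ arrays at -0.04, -0.82 and -0.72. Rad50 was then the 1 of 12 that passed, where 5.67% of all probes did (3.78% higher in BALB/c), and with 1 array left out it passed only without SPRET/EiJ replicate A, at 2.20. The Atm difference after LDIR was 0.65 (SE 0.42, adjusted p = 0.401), and without SPRET/EiJ LDIR replicate A, which had lymphocyte markers, 1.11 (SE 0.20, adjusted p = 0.0202), in limma.

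The second probe of each of these genes did not show the strain difference. The upstream Rad50 probe read -1.09, -1.76 and -1.02 in sham BALB/c and -1.13, -2.18 and -1.63 in sham SPRET/EiJ, and its difference was 0.36 (SE 0.34, 95% interval -0.45 to 1.17). The upstream Atm probe differed by 0.08 (SE 0.25, 95% interval -0.52 to 0.67). The probes of Atr went opposite ways. In sham tissue the downstream Atr probe was lower in BALB/c by -0.78 (SE 0.18, limma adjusted p = 0.0285) and the upstream one higher by 1.08 (SE 0.27, limma adjusted p = 0.0361). Both passed 5% after adjustment, as did 18.8% of all probes, without reaching the unadjusted threshold of 0.001. The within-array gap between downstream and upstream probes differed between strains in all 3 genes. For Rad50 the gap was 2.54 ± 0.30 in BALB/c and 0.81 ± 0.63 in SPRET/EiJ (SD, n = 6 arrays each). For Atm it was 1.80 ± 0.28 and 0.82 ± 0.17, and for Atr 3.12 ± 0.21 and 4.76 ± 0.38. No gap in one strain overlapped the other strain's. In an exact permutation test of strain labels within each treatment (400 arrangements, two-sided) each of the 3 gave p = 0.005, the smallest it allows, and 0.005 after Benjamini-Hochberg adjustment over the 3 genes. This test was chosen after the values were seen. The probes were designed on Mus musculus sequence, so a base difference of Mus spretus under a probe and a difference in the amount or form of the transcript cannot be told apart.

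**Figure D4:**
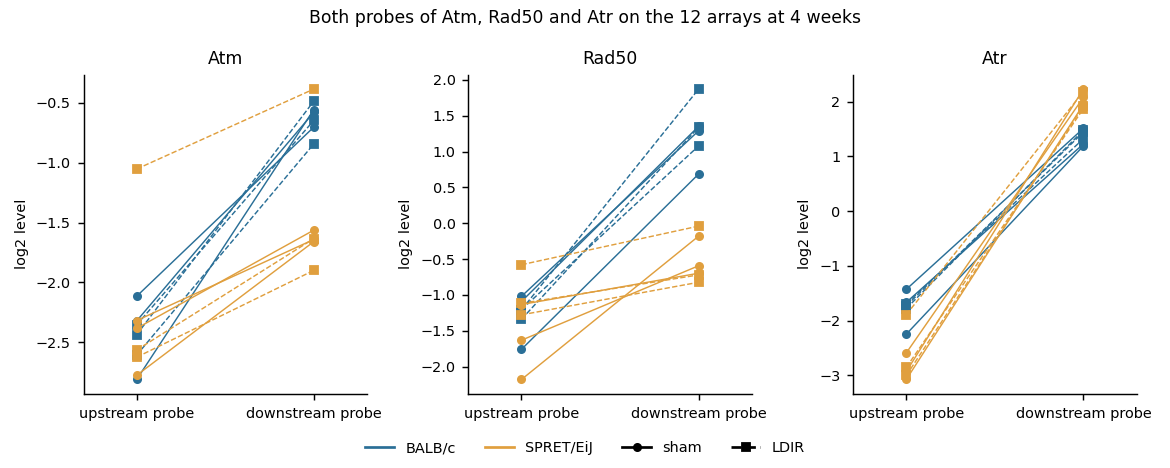
Log2 levels of the upstream and downstream probes of Atm, Rad50 and Atr on the 12 arrays at 4 weeks, with a line joining the probes of 1 array (sham solid, LDIR dashed). BALB/c and SPRET/EiJ arrays lie close on the upstream Rad50 probe and apart on the downstream one.

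None of the members with 1 probe passed between strains. In sham tissue Chek2 was lower in BALB/c by -0.80 (SE 0.23, limma adjusted p = 0.0615) and Nbn by -0.67 (SE 0.21, limma adjusted p = 0.0745), and neither pair of groups overlapped, as for 38% of all probes. H2afx was higher in BALB/c by 0.71 (SE 0.23, limma adjusted p = 0.0838) and Brca2 by 0.59 (SE 0.25, limma adjusted p = 0.164). None of these 4 passed. After LDIR the Chek2 and Brca2 differences kept their signs, at -0.70 (SE 0.23) and 0.81 (SE 0.26), and that of H2afx was -0.23 (SE 0.28). Nbn also kept its sign, with -0.49 ± 0.18 in BALB/c and 0.21 ± 0.65 in SPRET/EiJ after LDIR (SD, n = 3). The median over the 12 probes in sham tissue was 0.29, beside -0.08 for all probes. The epithelial markers had mean levels of 2.78 to 3.69 on the sham BALB/c arrays and 0.59 to 2.74 on the sham SPRET/EiJ arrays, macrophage means were 2.22 to 2.64 and 2.97 to 3.14, and endothelial means 2.57 to 2.69 and 2.04 to 2.40. The part of these cell types in the differences was not tested. At 4 weeks every SPRET/EiJ array lay on slide 3 and every BALB/c array on slides 1 and 2. Within these groups slide and strain therefore cannot be told apart. A joint fit of all 24 arrays with slide is possible because some BALB/c arrays at 8 weeks lay on slide 3. Its sham differences were 1.59 (SE 0.64) for Rad50 and 1.55 (SE 0.64) for Atm (limma adjusted p = 0.239 and adjusted p = 0.261). In it none of the 12 member probes passed in sham or after LDIR. Its correction for slide 3 rested on LDIR replicates B and C at 8 weeks, set against replicate A on slide 2. Replicate B had high lymphocyte markers and the highest downstream Atm level of all 24 arrays, 0.29. Its part in these values was not tested.

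Of the pathway genes, 6 of 52 passed between sham strains, 5 higher and 1 lower in BALB/c, where 9.21% of all genes passed. The 3 largest differences were those of Rad52, Dna2 and Timeless. Rad52, an annealing factor of recombination that was well above background on 2 of 3 SPRET/EiJ arrays, read -0.80 ± 0.26 in BALB/c and -5.75 ± 0.56 in SPRET/EiJ (SD, n = 3), a difference of 4.95 (SE 0.32, limma adjusted p = 0.000309). Dna2 had no sham SPRET/EiJ array well above background, so its level in BALB/c was higher by at least 7.88-fold (limma adjusted p = 0.000368). Timeless, a fork protection factor, differed by 2.60 (SE 0.18, limma adjusted p = 0.000374). After LDIR 1 of 52 passed, again Rad52, at 4.30 (SE 0.33, limma adjusted p = 0.00093), where 5.79% of all genes did.

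Time after exposure was compared in sham BALB/c glands. From 2 to 4 weeks none of the 12 member probes passed, where 3.04% of all probes did, and the differences lay between -0.61 and 0.22. From 4 to 8 weeks none passed either, where 13.7% of all probes did, and the lowest adjusted p = 0.369 in limma was that of the upstream Atr probe. Brca2 differed by 0.57 (SE 0.35). The Mre11a groups did not overlap, as for 23.4% of all probes: its 4-week arrays read -0.01, 0.15 and 0.01 and its 8-week arrays 0.46, 0.43 and 0.75, a difference of 0.50 (SE 0.22, limma adjusted p = 0.389). H2afx read 1.35, 2.10 and 1.51 at 4 weeks and 2.04, 2.11 and 2.55 at 8 weeks, a difference of 0.58 (SE 0.30, limma adjusted p = 0.464). Chek2 differed by 0.74 (SE 0.33, limma adjusted p = 0.396), and without the 8-week array with lymphocyte markers by 1.03 (SE 0.22, limma adjusted p = 0.0785), which passed. In that fit 19.5% of all probes passed. Brca1 read -7.51 to -4.89 at 8 weeks and was well above background on 1 of 3 arrays there and on none at 4 weeks, so no fold is given. The upstream Atr probe went the other way, by -0.81 (SE 0.34), while the downstream one differed by 0.16 (SE 0.23).

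Around the members, 11 of 52 pathway genes passed from 4 to 8 weeks in sham glands, 8 higher and 3 lower, where 14.3% of all genes passed. Clspn was not well above background on any 4-week array and was at least 6.14-fold higher at 8 weeks (limma adjusted p = 0.153). Exo1, a resection nuclease, was higher by 2.52 (SE 0.67, limma adjusted p = 0.199). Herc2 was lower by -1.81 (SE 0.38, limma adjusted p = 0.148). Over the 5 lists the median difference was 0.19, beside 0.05 for all genes, and the 4 resection genes Rbbp8, Exo1, Dna2 and Blm had a median of 0.68, of which Exo1 passed. The mean of the 20 proliferation genes was -2.01 to -0.93 on sham arrays at 4 weeks and -0.01 to 1.32 at 8 weeks. Other marker means parted the same groups: skeletal muscle read -2.54 to 0.77 and 1.85 to 3.56, and adipocytes 6.95 to 7.30 and 5.78 to 6.76. Endothelium read 2.57 to 2.69 and 2.25 to 2.36, macrophages 2.22 to 2.64 and 2.65 to 3.29, and milk proteins -6.26 to -6.14 and -6.00 to 1.48. Means of epithelium, lymphocytes and erythrocytes overlapped. The part of any of these in the changes was not tested. All sham 4-week arrays but replicate C lay on slide 1 and all sham 8-week arrays on slide 2, and with slide as a block 3 pathway genes passed.

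In the order of the 8 groups few steps exceeded the spread between arrays, taken as the pooled SD of the 8 groups. For the downstream Rad50 probe the single such step parted the 6 BALB/c groups, from 1.72 down to 1.11, from both SPRET/EiJ groups at -0.49 and -0.53. The downstream Atm probe had its single such step at the same place, between -0.66 and -1.31, and so did Brca2, between -1.36 and -1.95. The downstream Atr probe had its step between both SPRET/EiJ groups, at 2.08 and 1.99, and the highest BALB/c group at 1.51. For Mre11a the 8-week groups, at 0.55 and 0.50, stood over the next group at 0.22, and sham SPRET/EiJ glands lay lowest, at -0.17. H2afx was highest in sham glands at 8 weeks (2.23), over LDIR glands at 8 weeks (1.86), and its other neighbours did not differ beyond their spread. Nbn, the upstream Atm probe and the upstream Rad50 probe had no step beyond the pooled SD.

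Recombination genes are known to be transcribed mainly in dividing cells, so the members were set against 20 proliferation genes (among them Mki67, Top2a and Mcm2) over the 18 BALB/c arrays. With 9 correlations tested by permutation (100000 resamples, two-sided, Benjamini-Hochberg over the 9), 4 members had an adjusted p under 0.05 by Pearson's r and 2 of them, Mre11a and H2afx, also by Spearman's rho. The rho of both was no longer under 0.05 without the 2 BALB/c arrays with high lymphocyte markers (0.62 and 0.63, permutation, adjusted 0.0529 each), where r was 0.86 and 0.76. Mre11a had r = 0.86 and rho = 0.73 (permutation p = 8e-05 and 0.00096, adjusted 0.00063 and 0.00864). H2afx had r = 0.79 and rho = 0.68 (permutation p = 0.0003 and 0.0029, adjusted 0.0009 and 0.0131). Brca2 had r = 0.66 but rho = 0.34 (permutation p = 0.00912 and 0.169, adjusted 0.0205 and 0.253). Brca1 had r = 0.84 and rho = 0.48 (permutation p = 0.00014 and 0.0422, adjusted 0.00063 and 0.0950), from a probe not well above background on 17 of these arrays, and with normexp background correction its r was -0.16.

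Without the 2 arrays farthest from the median of the proliferation mean, r was 0.75 for Mre11a, 0.62 for H2afx, 0.63 for Brca1 and 0.10 for Brca2, so the Brca2 relation rested on those 2 arrays. For Mre11a and H2afx rho was then 0.62 and 0.54 (permutation, adjusted 0.111 and 0.150). Without the 2 arrays with high lymphocyte markers r for Brca2 was 0.85 and rho 0.53 (permutation, adjusted 0.0027 and 0.113). Deviations from the group means remove differences between times and treatments. On them r was 0.60 for Mre11a, 0.57 for H2afx, 0.58 for Brca2 and 0.62 for Brca1, and rho 0.47, 0.44, 0.54 and 0.32. Deviations within a group are tied to each other by its mean, so shuffling them freely over all arrays gives p-values that are too small. No p-value is therefore given for them. Within slide 2 (8 arrays at 4 and 8 weeks) r was 0.86 for Mre11a and 0.95 for H2afx (exact permutation p = 0.0128 and 0.00154, adjusted 0.0382 and 0.0138), with rho of 0.69 and 0.88 (adjusted 0.208 and 0.0652). Within slide 1 (8 arrays at 2 and 4 weeks, all of low proliferation mean) r was 0.48 and -0.13 (exact permutation p = 0.229 and 0.747), and rho 0.55 and 0.26. Neither passed there, and 8 arrays of so narrow a range cannot show that a relation is absent. Over the 6 SPRET/EiJ arrays r was 0.72 for Mre11a and 0.94 for H2afx (exact permutation p = 0.267 and 0.0694, adjusted 0.400 and 0.369) and rho 0.03 and 0.66, with LDIR replicate A, the array with lymphocyte markers, the highest in both.

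For the sensors Nbn and Rad50 and for the kinases no relation with proliferation passed. Over the 18 BALB/c arrays r was -0.30 for Nbn, 0.03 for Rad50, 0.35 for Atm, 0.28 for Atr and 0.35 for Chek2 (permutation p between 0.165 and 0.909, adjusted 0.284 to 0.909). Atm had rho = 0.55 (permutation p = 0.0199, adjusted 0.0596). Without the 2 BALB/c arrays with high lymphocyte markers r was 0.51 for Chek2 (permutation p = 0.0515, adjusted 0.0927). For Nbn, Rad50, Atm and Atr it then lay between -0.20 and 0.20. As a description over 18 arrays that share slides and a reference percentile, r was 0.78 between Mre11a and H2afx, 0.69 between Nbn and the downstream Rad50 probe and 0.70 between the downstream probes of Atm and Atr. The last fell to 0.39 without the 2 BALB/c arrays with lymphocyte markers. These pairs were picked from all member pairs, and other pairs of the sensor complex went otherwise. Mre11a had r = -0.40 with Nbn, -0.07 with the downstream and -0.63 with the upstream Rad50 probe. The 2 Rad50 probes had r = 0.17 with each other. Brca1, mostly not well above background, had r = 0.77 with Mre11a and 0.745 with H2afx.

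**Figure D5:**
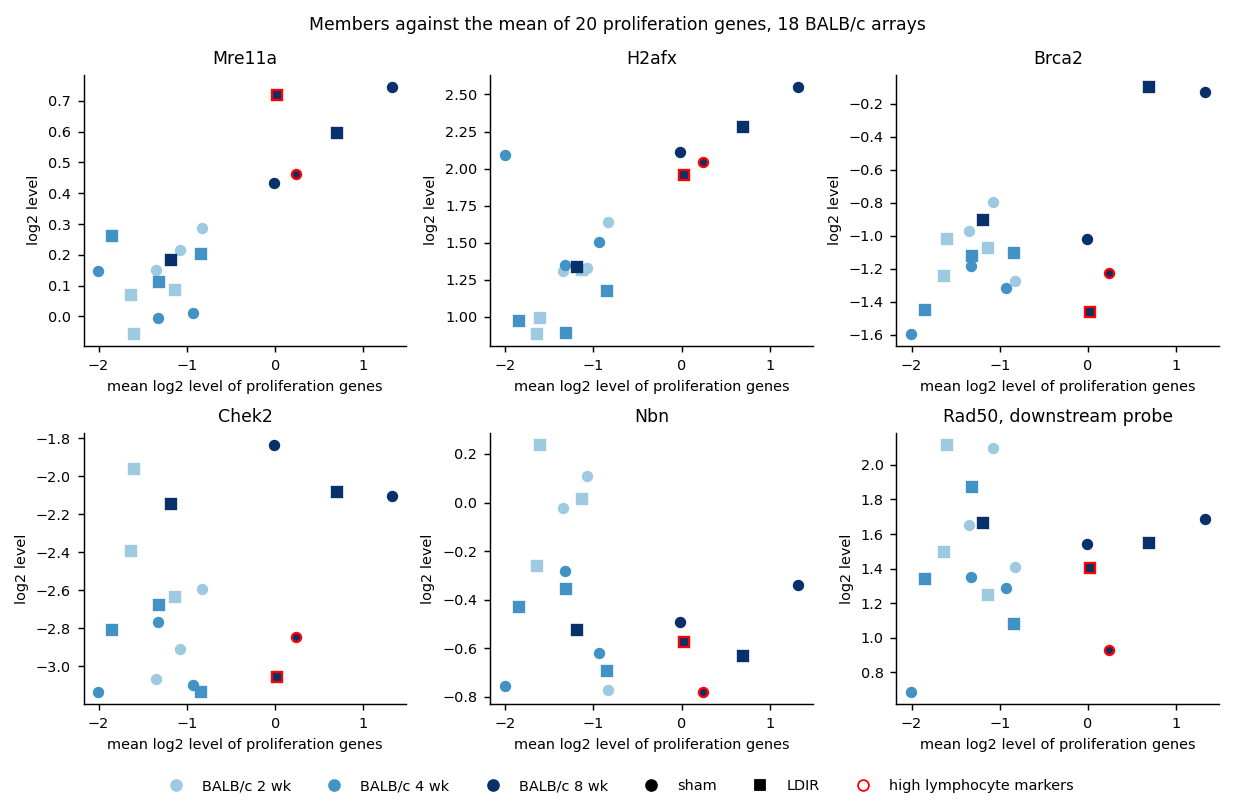
Log2 level of 6 members (y) against the mean log2 level of 20 proliferation genes (x) on 18 BALB/c arrays, coloured by time after exposure. Mre11a (r = 0.86) and H2afx (r = 0.79) increase along the axis, with sham replicate B at 4 weeks off the H2afx line. Nbn (r = -0.30) and Rad50 (r = 0.03) do not, and the relation of Chek2 (r = 0.35) did not pass.

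The genes most like each member were taken from 13648 named genes well above background on all 24 arrays, by Pearson's r over the 18 BALB/c arrays, as a description. For Mre11a they were Dis3 (0.95), Nasp (0.94), a histone chaperone, and Anp32b (0.94). For Brca2 they were Gins2 (0.91), a replication helicase subunit, Rad51ap1 (0.89), a recombination factor, and Cenpk (0.89), a centromere protein. For H2afx they were Lsm2 (0.92), Rcc2 (0.91) and Ogfrl1 (0.91). For Brca1 they were Rrm2 (0.89), Ercc6l (0.89) and Mad2l1 (0.89), of which Rrm2 also belongs to the proliferation list. For Atm they were Cep192 (0.88), Ddx46 (0.87) and Ep400 (0.87), and for Atr Ncapd3 (0.85), Helq (0.79) and Agpat5 (0.79). For Chek2 they were Fto (0.89), Emcn (0.88) and Fam189a2 (0.87). For Nbn they included Rab7 (0.87) and Vps35 (0.87), and for Rad50 they were Srpx2 (0.88), Rab2b (0.87) and Nid2 (0.86), the last an extracellular matrix gene.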

How the data were processed

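RNA of 24 mammary glands (8 groups of 3 biological replicates) was measured on 24 single-colour arrays on 3 slides of 8. Per the file headers, the authors deposited background-subtracted, detrended intensity values from Feature Extraction 10.10.1.1. They also deposited log2 values normalized to the 75th percentile, used here as an alternative. Here 3777 outlier spots in total over the 24 arrays, each of 59305 spots, were left out (0 were saturated). Log2 intensity was averaged per probe and centred on the array's 75th percentile. For comparison these values were also centred on each probe's median over the 24 arrays. Of the authors' log2 values, 99.797% lay within 0.01 of the values so centred. Of the 55681 probes, 7287 did not rise well above background anywhere. The number of arrays limits the precision, and an exact test of 3 against 3 cannot go below 0.1.

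Groups were compared with limma 3.58.1 (R 4.3.3), correlations with scipy 1.17.1, and figures drawn with matplotlib 3.10.9. Members, gene lists and tests were chosen with earlier results of these data known. All probes of the 9 genes are reported. The main probe of a gene is that with the highest mean over 24 arrays, pathway genes are named where called (the 3 largest changes a comparison), and the 3 most alike genes are given for each member, except that some items are not reported here. On simulated data 200 probes changed by a log2 of 2 were recovered at 99% (LDIR at 2 weeks, 55519 probes), 86% (sham strains, 55519 probes) and 98% (all BALB/c times, 55565 probes). Of the unchanged probes 3.43%, 0.123% and 2.55% were called. The planted change was larger than any LDIR difference of a member. These shares therefore do not tell how often a change near 1.5-fold would be found. Noise was drawn independently for each probe, and the simulated fit over all times left out time as a factor. Each result was recomputed with normexp (offset 50), with quantile scaling, from the deposited log2 values, with outlier spots retained, over detected probes, by the methods' t-test, with a block for replicate letter or for slide, in a joint fit of 24 arrays (slide in or out), and with single arrays omitted. Leaving out the 3 arrays with high lymphocyte markers was chosen after seeing the data.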

Additional observations from a re-analysis of the deposited data

Results flagged for a closer look

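The LDIR difference at 4 weeks differed between the strains by the interaction test for H2afx, at -0.95 on the log2 scale (BALB/c minus SPRET/EiJ; limma adjusted p = 0.955). It was lost with slide as a block and without BALB/c sham replicate B, BALB/c LDIR replicates B or C, SPRET/EiJ LDIR replicate A or SPRET/EiJ sham replicate B, with values of -0.93 to -0.70 without 1 of these arrays. Among the 52 pathway genes the same test passed for 3, where 3.27% of all genes passed: Dna2 at -2.06, Rad54l, a motor protein of recombination, at -1.35 and Gen1 at -1.15, each with a limma adjusted p = 0.955. Dna2 and Gen1 were not well above background on any sham SPRET/EiJ array, so their values have no measured fold in SPRET/EiJ. Groups of 3 arrays were too small for a test of single outlying arrays.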

How the results depend on the processing

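Members' calls were few and moved with the processing; unless a value shows otherwise, the cause was not tested. H2afx in BALB/c at 4 weeks (1 member called) kept its direction under the alternatives run, and 0 members were called there with normexp (-0.50, under 1.5-fold), the methods' t-test, the replicate block, slide as a block, or all 24 arrays with slide. With all 24 arrays and slide the H2afx difference at 8 weeks was -0.90. At that time slide 2 held all sham arrays but only LDIR replicate A, so this value rests on 1 LDIR array. No count of calls is given for it. The upstream Rad50 probe made 1 call in SPRET/EiJ with all 24 arrays, with or without slide. For SPRET/EiJ 2.37% of all probes passed with slide and 2.42% without. Between sham strains 2 members were called (3 with normexp, Atr being added, and with all 24 arrays 2, Atr in place of Atm), against 1 with quantile normalization or the t-test and 0 with the replicate block or all 24 arrays with slide. Between LDIR strains 1 was called, against 0 with the t-test, the replicate block or all 24 arrays with slide, and 2 without the arrays with high lymphocyte markers. In the order named, 3.42%, 3.76%, 3.09% and 7.9% of all probes passed in these fits. From 2 to 4 weeks 1 was called in place of 0 among detected probes only, of which 2.92% passed. From 4 to 8 weeks 1 was called in place of 0 with normexp, quantile normalization or without the lymphocyte arrays, 2 among detected probes and 3 with all 24 arrays, with or without slide. The shares of all probes were high there too: 9.52% with normexp, 15.1% with quantile normalization and 19.5% without the lymphocyte arrays. They were 20.6% among detected probes, 17.1% with all 24 arrays and 11.9% with all 24 arrays and slide. The strain by LDIR call went from 1 to 0 with slide as a block or without the lymphocyte arrays.

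For pathway genes, the call at 4 weeks (1) became 0 with quantile normalization, the t-test or all 24 arrays. At 8 weeks 0 became 1 with the replicate block, where 2.49% of all probes passed. Fits with slide rest at 8 weeks on LDIR replicate A alone, so their counts are not given. In SPRET/EiJ 3 became 0 with normexp or the t-test, 1 with quantile normalization or detected probes, and 5 with all 24 arrays, with or without slide. Of all probes 1.91% passed with quantile normalization, 1.11% among those detected, and 2.37% and 2.42% with all 24 arrays, with and without slide. Between sham strains 6 became 3 with all 24 arrays and slide, where 2.67% of all probes passed. Between LDIR strains 1 became 2 with quantile normalization or all 24 arrays with slide, 3 with normexp, 4 without the lymphocyte arrays and 6 with all 24 arrays. The shares of all probes at these 5 settings were, in order, 6.15%, 3.09%, 5.3%, 7.9% and 10.9%. From 4 to 8 weeks 11 became 3 with slide as a block, which over all BALB/c times gave 1 for 0. Of all probes 5.87% and 1.38% passed in these 2 fits. The 3 strain by LDIR calls became 0 with normexp and 1 with slide as a block or without the lymphocyte arrays. Time by LDIR went from 0 to 1 with normexp, quantile normalization, detected probes, the replicate block, slide as a block or without the lymphocyte arrays. At these settings 1.33% to 4.71% of all probes passed.

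Leaving out 1 array gave 0 to 1 member calls for LDIR in BALB/c at 2 and at 4 weeks, in SPRET/EiJ, between sham strains, from 4 to 8 weeks and in both interactions, 0 to 2 between LDIR strains and from 2 to 4 weeks, and 0 for LDIR at 8 weeks and over all times. For pathway genes it gave 0 to 1 for LDIR at 2 weeks, 8 weeks and over all times and from 2 to 4 weeks, 0 to 4 at 4 weeks, 0 to 6 in SPRET/EiJ, 4 to 5 between sham strains, 1 to 4 between LDIR strains and for strain by LDIR, 6 to 12 from 4 to 8 weeks and 0 to 2 for time by LDIR. The member called at 2 weeks was Chek2, without LDIR replicate C (0.68) or sham replicate A (0.66). For LDIR in BALB/c the shares of all probes then ran from 3.17% to 4.35% at 2 weeks and 3.95% to 10.8% at 4 weeks. They were 1.14% to 3.37% at 8 weeks and 1% to 1.67% over all times. In SPRET/EiJ they were 1.91% to 4.63%. Between strains they were 5.77% to 6.71% in sham and 2.88% to 7.9% after LDIR. Between times they were 2.74% to 4.51% from 2 to 4 weeks and 9.36% to 19.5% from 4 to 8 weeks. For strain by LDIR they were 2.62% to 6.17%, and for time by LDIR 2.57% to 6.46%.

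The 4 correlations with proliferation became 0 within slide 1, where r for H2afx reversed to -0.13, and r for Brca1 reversed to -0.16 with normexp. Of 115 uncalled member differences, 60 turned sign under some alternative. The share of all probes called for LDIR at 4 weeks ran from 1.08% (normexp) to 5.58% (detected probes). Replicate letters were not taken as pairs. Deviations of same-letter arrays had r between -0.362 and 0.274, and for LDIR in BALB/c at 4 weeks all were positive, at 0.0282 to 0.0557. The block took the share of all probes called from 8.89% to 5.73% between sham strains and from 5.67% to 3.76% between LDIR strains. A probe near background, as Brca1, has only a bound.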
